A study of Bos taurus with 20 samples.

Results

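The 10 genes described here, MCM2, MCM3, MCM4, MCM5, MCM6, MCM7, PCNA, CDC6, MKI67 and TOP2A, serve DNA replication and cell division. They were taken by name from a bovine expression array, on which they are measured by 24 of 61325 probes and make up 10 of 22550 genes or transcripts. Expression was measured in 5 groups with 4 arrays for each, namely cells of the theca (TH), of the granulosa (GC) and of the cumulus (CC), immature oocytes (OO), and cumulus taken once complexes had matured in vitro (IVM) for 4 h. All cells came from bovine antral follicles, which measured 3 to 6 mm, of ovaries collected at slaughter. TH were scraped off the follicle wall, and CC were detached from the complexes they form with the oocyte, before or after IVM. No group carried a genetic change, and IVM was the only treatment; the age of the animals and the number of ovaries behind each array are not given in the sources used here. The study's methods call the replicates of TH, GC, CC and OO biological. For the IVM arrays the sources used here do not say this, so that p-values of that comparison measure only the spread between arrays, which may in part be technical.

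Before a cell copies its DNA, replication origins are licensed. The origin recognition complex, CDC6 and CDT1 load a ring of the 6 proteins MCM2 to MCM7 on the DNA, and this ring later forms the core of the helicase that unwinds it. PCNA is the sliding clamp that holds DNA polymerases on the template, TOP2A is the topoisomerase that untangles the copied strands before they part, and MKI67, a protein of the surface of mitotic chromosomes, is widely used as a marker of dividing cells. Granulosa and cumulus cells divide as the follicle grows, whereas the oocyte of an antral follicle is arrested in meiosis and stores RNA for the first divisions of the embryo.

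Each gene was read by probes of 60 bases. The sequences of MCM2, MCM4 and MCM6 are shown because these 3 subunits of the same ring behaved differently, MCM4 and MCM6 being higher in OO and MCM2 and MCM4 lower after IVM, and because the position of the MCM4 transcript matters for its values. The pair shown for MCM6 shares no bases. Each of the 4 sequences has at least 1 reading frame free of stop codons over its whole length, and they are written 5′ to 3′ in the sense of the deposited probe table.
MCM2 probe 1: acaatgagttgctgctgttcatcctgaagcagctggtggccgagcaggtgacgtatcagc
MCM4 probe 1: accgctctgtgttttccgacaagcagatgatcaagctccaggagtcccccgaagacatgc
MCM6 probe 1: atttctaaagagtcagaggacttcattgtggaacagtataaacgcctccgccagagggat
MCM6 probe 2: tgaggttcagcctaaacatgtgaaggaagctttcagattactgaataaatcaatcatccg

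In the UMD 3.1 build used by the array files, the MCM2 transcript lies at chr22:60565325-60581052, MCM6 at chr2:61821905-61852264 and MCM4 at chr27:41044071-41049402. The MCM4 span of 5332 bp is the shortest of the 10 genes, and it is placed on a chromosome other than that of MCM4 in the RefSeq table (assembly ARS-UCD2.0). For the other 9 genes the chromosome was the same in both. The values of MCM4 are therefore those of the transcript that the array names MCM4, and whether they come from 1 or more copies in the genome is uncertain. CDC6 (chr19:41185975-41196948) and TOP2A (chr19:41281652-41307194) are neighbours, with 84.7 kb between them. The 2 probes of MCM3, MCM5 and MCM7 overlap by 51, 57 and 45 bases, so that they are not independent measurements of these genes. MCM4 has 2 sequences that were each printed as 2 probes, and the 4 probes of MKI67 hold 3 sequences on 2 transcripts.

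Levels are given as log2 of the processed signal relative to the 75th percentile of each array, so that 0 is the level of a bright probe of that array. They can be compared between arrays for a gene, but not between genes. The share of probes with a signal well above background was 49.3 to 68.8% on OO arrays and 54.2 to 62.8% on the others. The 75th percentile itself was a processed signal of 1521 to 2891 in OO, 424.1 to 1101 in TH and 368.1 to 576.3 in GC. In CC it was 536.3 to 657.3, compared with 284.5 to 395.9 after IVM. The part of these differences in the levels of genes near background was not tested. All 5 theca markers had their highest mean of the 4 cell types in TH, the 4 granulosa and cumulus markers in CC and the 6 oocyte markers in OO. OO showed the granulosa and cumulus markers at a summed log2 level of 1.14 to 1.60, compared with 8.57 to 8.62 in CC. The arrays of TH, GC, CC and OO were spread evenly over 2 slides, while the 4 IVM arrays shared the other slide. In bulk RNA, fewer cells of a type and less RNA per cell cannot be told apart.

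Some arrays stood apart in several of the 10 genes. GC replicate 4 was the highest GC array for 9 genes, with the highest summed level of granulosa and cumulus markers among GC arrays (8.82, compared with 6.79 to 7.70 in the other three). OO replicate 1 was the highest OO array for MCM2 and the lowest for MKI67. TH replicate 4 was the highest TH array for 7 genes.

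**Figure D1:**
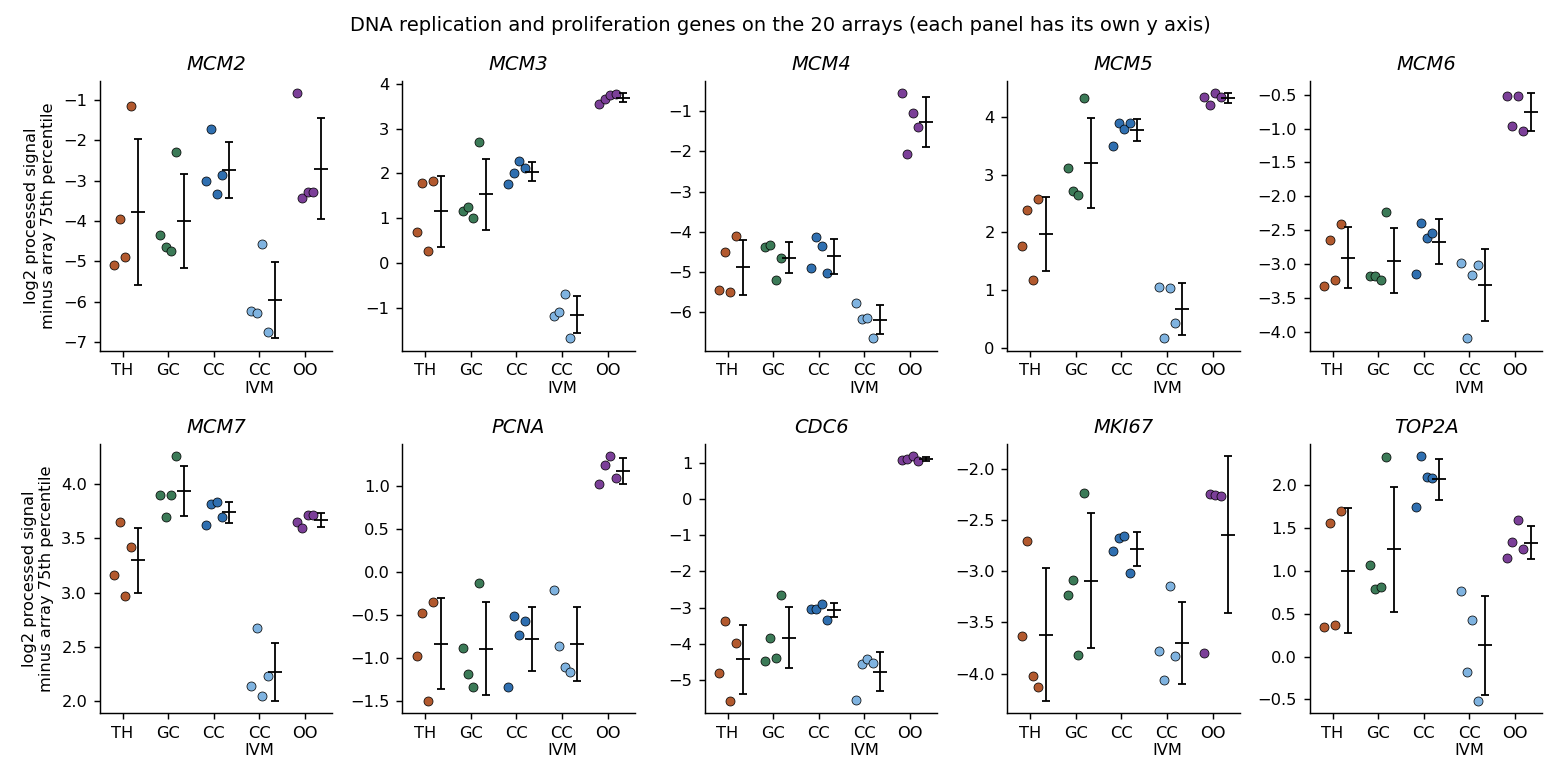
Log2 processed signal minus the 75th percentile of the array (y axis, a separate scale for each gene) in the 5 groups, with 1 point for each array in the order of replicates 1 to 4 and, to their right, the mean with its SD (n = 4). CDC6, MCM3, MCM4, MCM6 and PCNA stood clear of the other groups in OO. By the limma test at an adjusted p of 0.05, 8 of the 10 genes were lower after IVM than in CC, as were 15.5% of all genes.

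The first question was how the genes differed between the cell types of the follicle. Over TH, GC, CC and OO, 7 of the 10 genes passed the F-test (limma, Benjamini-Hochberg adjustment over 22550 genes, threshold 0.05), against a background of 71.3% of all genes. MCM2, MKI67 and TOP2A did not pass, at adjusted p of 0.33, 0.15 and 0.071. The share of the 10 genes was therefore close to that of the array.

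In the oocyte, 6 genes were higher than in the somatic mean, the mean over TH, GC and CC, and 0 were lower, where 32.9% of all genes were higher and 38.3% lower. The 6 were CDC6, MCM4, MCM3, MCM6, PCNA and MCM5. The median difference of the 10 genes was 1.68, compared with -0.52 over all genes. The subunits MCM2 and MCM7 and the proliferation markers MKI67 and TOP2A were not among them.

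CDC6, the loader of the MCM ring, showed the largest difference of the 10 genes. Its levels were 1.08, 1.09, 1.18 and 1.05 on the OO arrays, -3.02, -3.04, -2.89 and -3.33 on the CC arrays, -4.47, -3.82, -4.37 and -2.64 on the GC arrays and -4.79, -3.37, -5.57 and -3.97 on the TH arrays. The 4 OO arrays lay close together and above all 12 somatic arrays. The difference was 4.87 ± 0.35 (SE; 29.3-fold; limma adjusted p = 3.2e-09), and its 2 probes gave 4.77 and 4.98. CDC6 was well above background on 3 of the 4 TH arrays and on all arrays of GC, CC and OO.

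MCM4 followed, with -0.55, -2.06, -1.05 and -1.38 in OO and between -5.49 and -4.10 over the somatic arrays. The lowest OO array was thus above the highest somatic array by more than the whole range of the somatic arrays. The difference was 3.45 ± 0.30 (adjusted p = 3.8e-08), with 3.46 to 3.54 over its 4 probes. In TH, MCM4 was well above background on only 2 of the 4 arrays.

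MCM3 reached 3.56, 3.67, 3.76 and 3.77 in OO, compared with 1.76, 2.00, 2.28 and 2.12 in CC, 1.17, 1.25, 1.00 and 2.71 in GC and 0.69, 1.78, 0.27 and 1.84 in TH. No somatic array came up to OO, and the nearest was GC replicate 4. MCM3 was 2.12 ± 0.31 higher (4.34-fold; adjusted p = 1.5e-05).

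MCM6 was between -1.04 and -0.52 in OO and between -3.32 and -2.24 on the somatic arrays. Its difference was 2.09 ± 0.22 (4.25-fold; adjusted p = 4.2e-07), and the groups did not overlap. PCNA, the clamp, was between 1.02 and 1.35 in OO and between -1.50 and -0.13 in the somatic cells, a difference of 2.01 ± 0.24 (4.03-fold; adjusted p = 1.5e-06).

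MCM5 differed less, and passed the test against TH and GC but not against CC. Its levels were 4.35, 4.21, 4.41 and 4.35 in OO, 3.50, 3.90, 3.79 and 3.89 in CC, 3.11, 2.72, 2.65 and 4.33 in GC and 1.77, 2.39, 1.17 and 2.57 in TH. GC replicate 4 lay within the range of OO, whereas all TH arrays were well below it. The difference from the somatic mean was 1.35 ± 0.28 (adjusted p = 4.9e-04). Against CC alone it was 0.56, with a 95% interval from -0.18 to 1.29 (adjusted p = 0.17), although all OO arrays were above all CC arrays. It was called with arrayWeights (0.57, adjusted p = 0.038) and on the deposited log2 table (1.07, adjusted p = 0.011).

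MCM7, a subunit of the same ring, did not share this pattern. It was between 3.60 and 3.72 in OO, 3.62 and 3.84 in CC, 3.70 and 4.26 in GC and 2.97 and 3.65 in TH. The difference between OO and the somatic mean was 0.01, with a 95% interval from -0.28 to 0.30 (adjusted p = 0.94). On the deposited log2 table, from which background was not subtracted, it was 0.67 (adjusted p = 7.5e-04). Against single cell types, MCM7 in OO differed by 0.37 from TH, -0.27 from GC and -0.07 from CC (adjusted p = 0.062, 0.15 and 0.71). Against GC it was called lower with quantile normalization (-0.44, adjusted p = 0.0089) and higher on the deposited table (0.52, adjusted p = 0.02), so that its place depended on the processing.

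MCM2 could not be separated from its spread. Its OO levels were -0.84, -3.43, -3.29 and -3.29, so that replicate 1 alone was above the CC array at -1.73, and in TH they ran from -5.08 to -1.16. The difference was 0.80, with a 95% interval from -0.66 to 2.25 (adjusted p = 0.29).

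The markers of dividing cells showed no called difference between OO and the somatic mean. TOP2A was 1.15, 1.34, 1.59 and 1.25 in OO, 1.75, 2.34, 2.10 and 2.08 in CC, 1.07, 0.79, 0.81 and 2.33 in GC and 0.35, 1.56, 0.37 and 1.70 in TH. All OO arrays were below all CC arrays, although the difference of -0.74 did not pass the test (adjusted p = 0.089). TOP2A was called lower than in CC with arrayWeights (-0.80, adjusted p = 0.0075) and without GC replicate 4 (-0.74, adjusted p = 0.037). The same held with the percentile taken over probes detected on all arrays (-0.83, adjusted p = 0.04). Against the somatic mean TOP2A differed by -0.11, with an interval from -0.74 to 0.52 (adjusted p = 0.74). In the same contrast its neighbour CDC6 differed by 4.87.

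MKI67 was -3.80, -2.24, -2.25 and -2.26 in OO, between -3.02 and -2.65 in CC, between -3.82 and -2.23 in GC and between -4.13 and -2.70 in TH. OO replicate 1 stood below the other three, which were nearly equal. The difference from the somatic mean was 0.53, with an interval from -0.18 to 1.23 (adjusted p = 0.15), and it was 0.91 without OO replicate 1 (adjusted p = 0.015). It was also called with arrayWeights (0.89, adjusted p = 0.0019) and on the deposited log2 table (0.69, adjusted p = 0.016). After normexp correction it was -0.06 (adjusted p = 0.76).

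Pair by pair, OO was higher than TH for 7 genes (background 32.5%), than GC for 6 (30.7%) and than CC for 5 (31.8%). OO was lower for 0 in each, where 7239, 8548 and 7213 of all 22550 genes were lower. These 3 comparisons share the OO arrays. The 5 genes against CC were CDC6 (4.17), MCM4 (3.35), PCNA (1.96), MCM6 (1.92) and MCM3 (1.65). MKI67 was the gene added against TH alone (0.98, adjusted p = 0.044), and this call held under 16 of 32 alternatives. It was lost, among others, without any 1 CC array (adjusted p between 0.052 and 0.054), with the slide as a block (adjusted p = 0.053), within slide 1 (0.14, adjusted p = 0.93), after normexp correction (0.22, adjusted p = 0.40), with the percentile taken over probes detected on all arrays (0.67, adjusted p = 0.13) and without TH replicate 1, 3 or 4, GC replicate 1 or 2, or OO replicate 2, 3 or 4 (0.81 to 0.98, adjusted p between 0.053 and 0.12).

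Each slide on its own gave close values. The differences of CDC6, MCM4, MCM3, MCM6, PCNA and MCM5 from the somatic mean were 4.84, 3.32, 2.17, 2.24, 2.03 and 1.38 within slide 1 and 4.91, 3.59, 2.06, 1.94, 1.99 and 1.31 within slide 2, and with the slide as a block all 6 were called. For MCM2 they were 1.67 and -0.08, and for MKI67 they were 0.00 and 1.05. Without GC replicate 4 and OO replicate 1, a choice made after seeing the data, 7 genes were called higher in OO, with MKI67 added (1.01, adjusted p = 0.0034). The split of all calls depended on the scaling: 46.2% of them were higher in OO here and 26.4% after normexp background correction, which moved the median of all genes from -0.52 to -1.30.

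**Figure D2:**
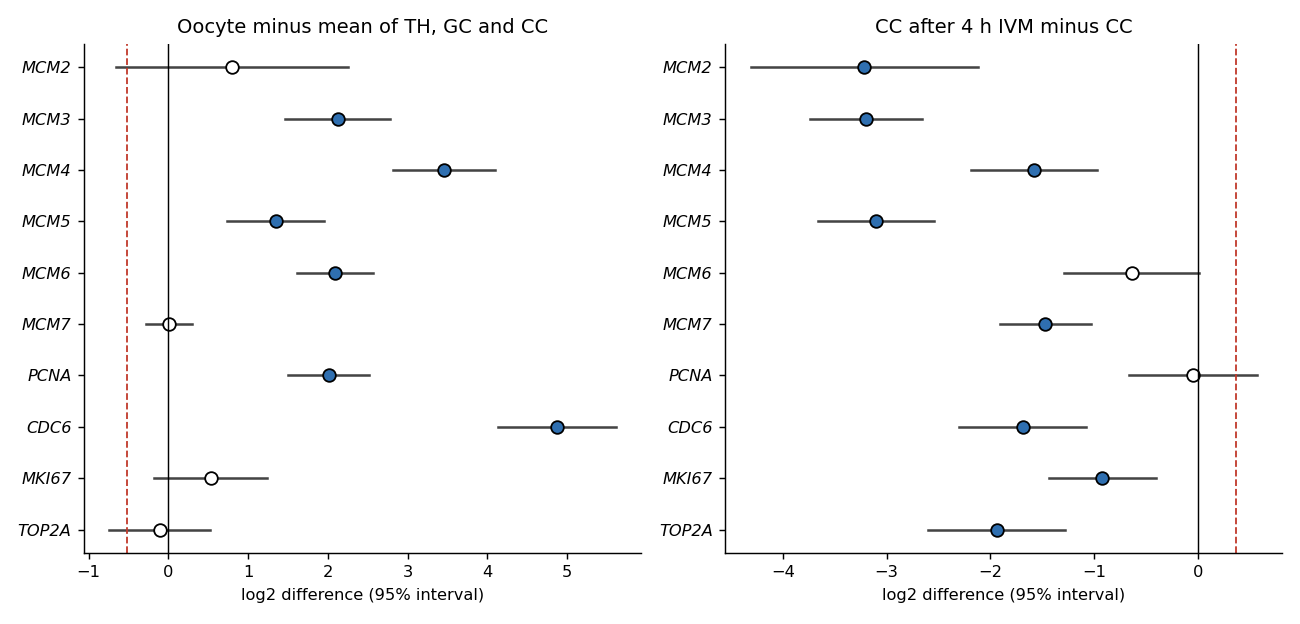
Log2 difference of each gene (x axis) between OO and the somatic mean (left) and between CC after 4 h of IVM and CC (right), with 95% intervals; filled points passed the limma test at an adjusted p of 0.05, and the dashed line is the median of all genes. CDC6 and MCM4 lie farthest to the right in OO, at 4.87 and 3.45, and MCM2, MCM3 and MCM5 farthest to the left after IVM, between -3.22 and -3.10.

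Among the somatic cells, fewer of the genes were called than for OO, and where a difference was called TH was the lower. The median difference of the 10 genes was -0.32 for TH against GC, -0.86 for TH against CC and -0.41 for GC against CC. Over all genes these medians were -0.22, 0.00 and 0.16. TH was lower than GC for 2 of the 10 genes, MCM5 and MCM7 (background 14.5%), and lower than CC for 3, MCM5, CDC6 and TOP2A (background 17.4%). TH was higher for 0 in both, where 2671 and 3241 of all 22550 genes were higher. Whether these counts set the 10 genes apart from all genes was not tested. Markers of other cells differed too. The summed log2 level of the 3 endothelial markers was 0.43 to 2.13 in TH, -4.66 to -3.15 in GC and -5.63 to -4.86 in CC, with 2 or 3 of them well above background on each TH array. That of the 3 blood cell markers was -2.31 to -1.13 in TH, -3.55 to -1.69 in GC and -3.57 to -2.25 in CC, with all 3 above background on each TH array. The part of these markers in the differences was not tested. Between GC and CC, 0 genes were called by limma, with 1 (TOP2A) at an unadjusted p under 0.05 and a background of 9.88%.

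The MCM5 levels of TH, given above, lay below all GC and all CC arrays. The difference was -1.23 ± 0.35 against GC (adjusted p = 0.015) and -1.80 ± 0.35 against CC (3.48-fold lower; adjusted p = 7.5e-04). MCM7 was 3.16, 3.65, 2.97 and 3.42 in TH and 3.90, 3.70, 3.90 and 4.26 in GC, a difference of -0.64 ± 0.17 (adjusted p = 0.0090) without overlap.

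CDC6 was lower in TH than in CC by -1.36 ± 0.43 (adjusted p = 0.023), and TOP2A by -1.07 ± 0.36 (adjusted p = 0.033), again without overlap. For both genes TH replicates 1 and 3 were the lowest arrays. The number of genes called between TH and CC ranged from 1 to 5 when 1 array was left out: it was 1 without TH replicate 1, TH replicate 3 or CC replicate 3, and 5 without TH replicate 2 or GC replicate 4. It was 6 without GC replicate 4 and OO replicate 1 together, 1 within slide 1 and 0 within slide 2.

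The intervals show what the remaining somatic comparisons could have missed. Between TH and CC, MKI67 differed by -0.84 (95% interval from -1.70 to 0.02) and MCM3 by -0.89 (from -1.70 to -0.08; adjusted p = 0.092). MCM7 differed by -0.44 (from -0.80 to -0.09; adjusted p = 0.054). It was called, among others, with arrayWeights and with array median scaling (-0.57 in both, adjusted p = 0.0021 and 0.025). PCNA and MCM6, at -0.04 and -0.23, lay between limits of -0.81 and 0.58. MCM2 had the widest intervals, from -2.81 to 0.74 between TH and CC and from -3.05 to 0.51 between GC and CC. Between GC and CC, TOP2A differed by -0.82 (adjusted p = 0.20). GC replicate 4 decided this comparison, since without it TOP2A (-1.18, adjusted p = 0.024) and MCM5 (-0.94, adjusted p = 0.041) were lower in GC. In order of their means, OO, CC, GC and TH followed each other for MCM3, MCM4, MCM5, CDC6 and MKI67, but neighbours in this order passed the test only for OO against CC in MCM3, MCM4 and CDC6 and for GC against TH in MCM5. For MCM5, OO and CC did not overlap either, without passing it.

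**Figure D3:**
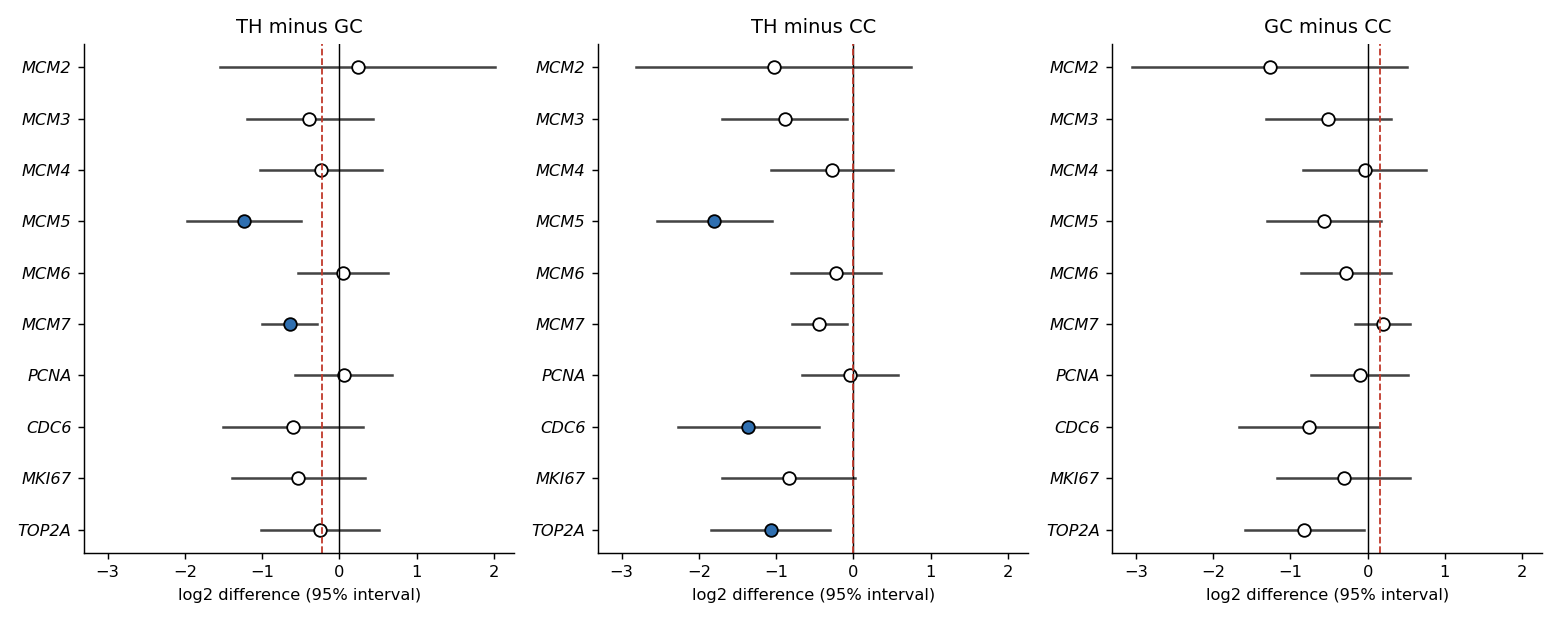
Log2 difference of each gene with its 95% interval (x axis, the same scale in all panels) for TH minus GC, TH minus CC and GC minus CC; filled points passed the limma test at an adjusted p of 0.05, and the dashed line is the median of all genes. Called differences were those of MCM5 and MCM7 (left) and of MCM5, CDC6 and TOP2A (middle), and GC and CC had 0.

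The other question was what changed in CC within 4 h of IVM, the first hours in which the oocyte resumes meiosis and cumulus cells begin to expand. 8 of the 10 genes were lower after IVM than in CC and 0 were higher. Of all genes, 15.5% were lower and 30.3% higher. The median difference of the 10 genes was -1.64, compared with 0.37 over all genes. Of all calls, 66.1% were higher after IVM here, 43.2% after quantile normalization and 83.3% after normexp correction. The IVM arrays were alone on their slide, so that slide and IVM cannot be told apart in any of these values.

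Among the genes well above background on all 8 arrays, the largest falls were those of MCM3 and MCM5. MCM3 was 1.76, 2.00, 2.28 and 2.12 in CC and -1.18, -1.09, -0.69 and -1.69 after IVM. All IVM arrays were thus below all CC arrays, and the gap was wider than the range of either group. The difference was -3.20 ± 0.24 (9.21-fold lower; adjusted p = 1.7e-05).

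MCM5 was 3.50, 3.90, 3.79 and 3.89 in CC and 1.06, 0.16, 1.04 and 0.42 after IVM. It was lower by -3.10 ± 0.25 (8.57-fold; adjusted p = 2.3e-05), and all arrays of both groups were well above background. MCM2 was -3.02, -1.73, -3.34 and -2.86 in CC and -6.22, -6.29, -4.57 and -6.75 after IVM. Its fall of -3.22 ± 0.49 (adjusted p = 9.1e-04) is less well measured, because MCM2 was well above background on only 1 of the 4 IVM arrays. It was -1.27 on the deposited log2 table (adjusted p = 0.0022) and -0.50 after normexp correction (adjusted p = 0.026).

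MCM7 and MCM4 fell by less than these. MCM7 was between 3.62 and 3.84 in CC and 2.14, 2.67, 2.05 and 2.23 after IVM, a difference of -1.47 ± 0.20 (2.77-fold lower; adjusted p = 4.1e-04). MCM4 was between -5.04 and -4.13 in CC and between -6.66 and -5.77 after IVM, where it was well above background on 1 array of 4. The difference of MCM4 was -1.58 ± 0.27 (adjusted p = 0.0019), but it was -0.20 on the deposited log2 table (adjusted p = 0.15) and 0.25 after normexp correction (adjusted p = 0.077).

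The remaining subunit, MCM6, was not called. It was -3.15, -2.40, -2.61 and -2.55 in CC and -2.98, -4.10, -3.16 and -3.01 after IVM, and the groups overlapped. The difference was -0.64, with an interval from -1.29 to 0.01 (adjusted p = 0.097). It was called on the deposited table (-0.53, adjusted p = 0.017) and with the slide as a random block (adjusted p = 0.011). Since the IVM arrays were alone on their slide, that block cannot separate slide from IVM, and no conclusion is drawn from its call.

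CDC6 was lower after IVM by -1.69 ± 0.27 (3.23-fold; adjusted p = 0.0012), with -5.55, -4.56, -4.42 and -4.51 compared with the CC values above. It was well above background on 3 IVM arrays, through 1 of its 2 probes only, and after normexp correction the difference was -0.07 (adjusted p = 0.57). TOP2A, whose arrays were all well above background, was 0.77, -0.18, 0.43 and -0.52 after IVM. All of these were below the CC arrays, and the difference was -1.94 ± 0.29 (3.84-fold lower; adjusted p = 8.9e-04).

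MKI67 was -3.78, -4.06, -3.14 and -3.83 after IVM and -2.80, -2.67, -2.65 and -3.02 in CC. The difference was -0.92 ± 0.23 (adjusted p = 0.013), and its 4 probes ranged from -1.81 to -0.58, of which 2 were called. The call was lost after normexp correction (-0.10, adjusted p = 0.43) and with all 20 arrays in 1 fit (adjusted p = 0.070).

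PCNA, like the subunit MCM6, was not called. Its levels were -1.33, -0.51, -0.73 and -0.57 in CC and -0.21, -0.86, -1.10 and -1.16 after IVM, and the groups overlapped. The difference was -0.05, with an interval from -0.66 to 0.57 (adjusted p = 0.89). Of the 10 genes, MCM2, MCM3, MCM5, MCM7 and TOP2A were lower and called under all 21 alternatives tried for this comparison, though the size for MCM2 ran from -3.68 to -0.50.

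Markers of other cells moved too. The summed log2 level of the 6 oocyte markers was -0.83 to 1.59 in CC and -2.64 to -0.84 after IVM, compared with 7.95 to 8.37 in OO, and 4 of them were lower after IVM and 0 higher. Of the genes that fell after IVM, CDC6, MCM4 and MCM3 were higher in OO than in CC, by 4.17, 3.35 and 1.65, while the other 5 were not called in that comparison. Of the granulosa and cumulus markers, 1 was higher and 3 were lower after IVM, with a summed level of 9.29 to 9.59. All 3 blood cell markers were called higher, with a summed level of -1.16 to -0.05 after IVM and -3.57 to -2.25 in CC, and of these 1 or 2 were well above background on an IVM array. Only CD68 (mean -2.89 in CC and -0.74 after IVM) was well above background on all arrays of both groups. HBB was so on 0 CC and 2 IVM arrays and PTPRC on 0 of either group, so that their rises are not well measured. Of the 3 endothelial markers 2 were higher (-4.34 to -3.12, compared with -5.63 to -4.86 in CC), with 0 to 2 above background. The theca markers had 0 of 5 called. The part of these markers in the falls was not tested.

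**Figure D4:**
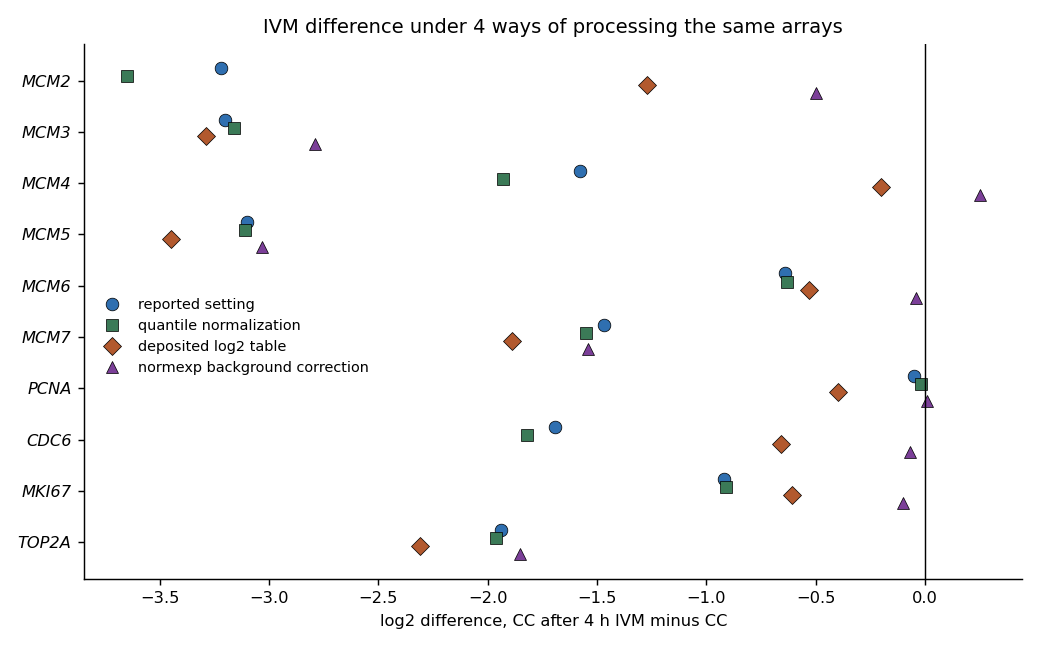
Log2 difference between CC after 4 h of IVM and CC (x axis) for each gene, with 1 symbol for each of 4 ways of processing the same 8 arrays. MCM3, MCM5, MCM7 and TOP2A stay between -3.45 and -1.47, whereas MCM2, MCM4, CDC6 and MKI67 come close to 0 or past it after normexp correction, at -0.50, 0.25, -0.07 and -0.10.

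To see how far the 10 genes were like the rest of their pathway, 86 other genes in 6 lists were followed, all of which were on the array. In OO, 71 were higher than the somatic mean, 6 were lower and 9 were not called, with a median difference of 2.15. After IVM, 7 were higher than in CC, 51 lower and 28 not called, with a median of -1.03. In TH, 44 were lower than in CC and 2 higher, whereas between GC and CC 83 were not called. Of all genes, 32.9% were higher and 38.3% lower in OO, and 30.3% were higher and 15.5% lower after IVM. In TH, 17.4% of all genes were lower than in CC and 3241 of 22550 higher. Between GC and CC, 9.88% of all genes were called.

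Of the 18 genes of origin licensing and firing, 14 were higher in OO and 2 lower. MCM10, which helps to activate the loaded helicase, was higher by 4.57 ± 0.27 (adjusted p = 2.9e-10), and ORC5, a subunit of the origin recognition complex, by 3.72 ± 0.12 (adjusted p = 2.0e-13). DBF4, the activator of the CDC7 kinase that fires origins, was lower by -1.14 ± 0.21 (adjusted p = 1.5e-04). After IVM, 12 of the 18 were lower and 3 higher. ORC1 fell by 3.17 and CDT1, the partner of CDC6 in loading the ring, by 2.95 on the log2 scale (adjusted p = 8.4e-06 and 1.1e-05). MCM10 was higher after IVM by 1.05 (adjusted p = 0.0096). GINS4, a subunit of the helicase, was called higher but was well above background on 1 IVM array and 0 CC arrays, so that no fold is given. In TH, GINS1 and ORC3 were lower than in GC (-1.46 and -0.85; adjusted p = 7.1e-05 and 8.2e-04), and CDC7 was higher (0.69, adjusted p = 0.0028).

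MCM8, a relative of the ring subunits that works in homologous recombination, was higher in OO by 3.61 (adjusted p = 3.4e-10), lower in TH than in GC by -1.38 (adjusted p = 9.7e-04) and lower after IVM by -2.22 (adjusted p = 2.0e-04), where it was well above background on 1 array. MCM9 was called in 0 of these comparisons.

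Of the 26 genes of the replication fork, 20 were higher in OO and 2 lower. CHAF1A, a subunit of the chromatin assembly factor that works behind the fork with PCNA, was higher by 4.53 ± 0.29 (adjusted p = 1.0e-09), and POLE2, a subunit of DNA polymerase epsilon, by 4.47 ± 0.27 (adjusted p = 3.4e-10). After IVM, 16 were lower and 1 was higher. RFC2, of the loader of PCNA, fell by 2.71 (adjusted p = 2.8e-05) and CHAF1A by 2.37 (adjusted p = 2.1e-04), while CHAF1B, the partner of CHAF1A, was higher by 1.48 (adjusted p = 0.0037). Between TH and GC, RPA3 and RFC4 were lower in TH (-1.66 and -0.83; adjusted p = 8.4e-06 and 0.013), and between GC and CC, POLD2 was lower in GC (-0.54, adjusted p = 0.037).

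Among the 6 genes of nucleotide supply, 4 were higher in OO and 2 lower. TYMS, thymidylate synthase, was higher by 2.75 (adjusted p = 1.4e-09) and TK1, thymidine kinase, by 1.41 (adjusted p = 3.5e-04). After IVM, 4 were lower and 1 higher. TK1 fell by 1.95 and RRM1, the large subunit of ribonucleotide reductase, by 1.60 (adjusted p = 0.0079 and 3.4e-04), whereas RRM2, its small subunit, was higher by 1.45 (adjusted p = 0.0012).

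Of the 28 genes of mitosis and cell division, 26 were higher in OO and 0 lower, with a median of 2.65. TOP2A was not called in this contrast, and MKI67 was called only under some of the alternatives. The kinase AURKA was higher by 5.21 ± 0.26 (adjusted p = 3.5e-11), and PRC1, which bundles microtubules of the spindle, by 4.86 ± 0.28 (adjusted p = 2.7e-10), though PRC1 was well above background on only 7 of the 12 somatic arrays. After IVM, 17 were lower and 1 higher. BUB1B, a spindle checkpoint kinase, and ASPM, a protein of the spindle poles, fell by 2.78 and 2.50 (adjusted p = 5.0e-04 and 4.2e-04), and NDC80, of the kinetochore, was higher by 1.03 (adjusted p = 0.0024). TH was lower than GC for 3 of the 28 genes (background 14.5%), ANLN (-1.17, adjusted p = 0.0015) and AURKA (-1.03, adjusted p = 0.023) among them, and lower than CC for 18 (background 17.4%).

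All 6 transcription factors of proliferation were higher in OO. E2F1, an activator of replication genes, was at least 6.91-fold higher and FOXM1, an activator of mitotic genes, at least 3.25-fold (adjusted p = 6.2e-10 and 6.1e-06). Both were well above background on 0 TH arrays, where the lowest signal well above background of the array, or the measured value if higher, stood in. After IVM, MYBL2 fell by 1.07 (adjusted p = 0.0094), LIN54 was higher by 0.95 (adjusted p = 0.012) and the other four were not called.

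**Figure D5:**
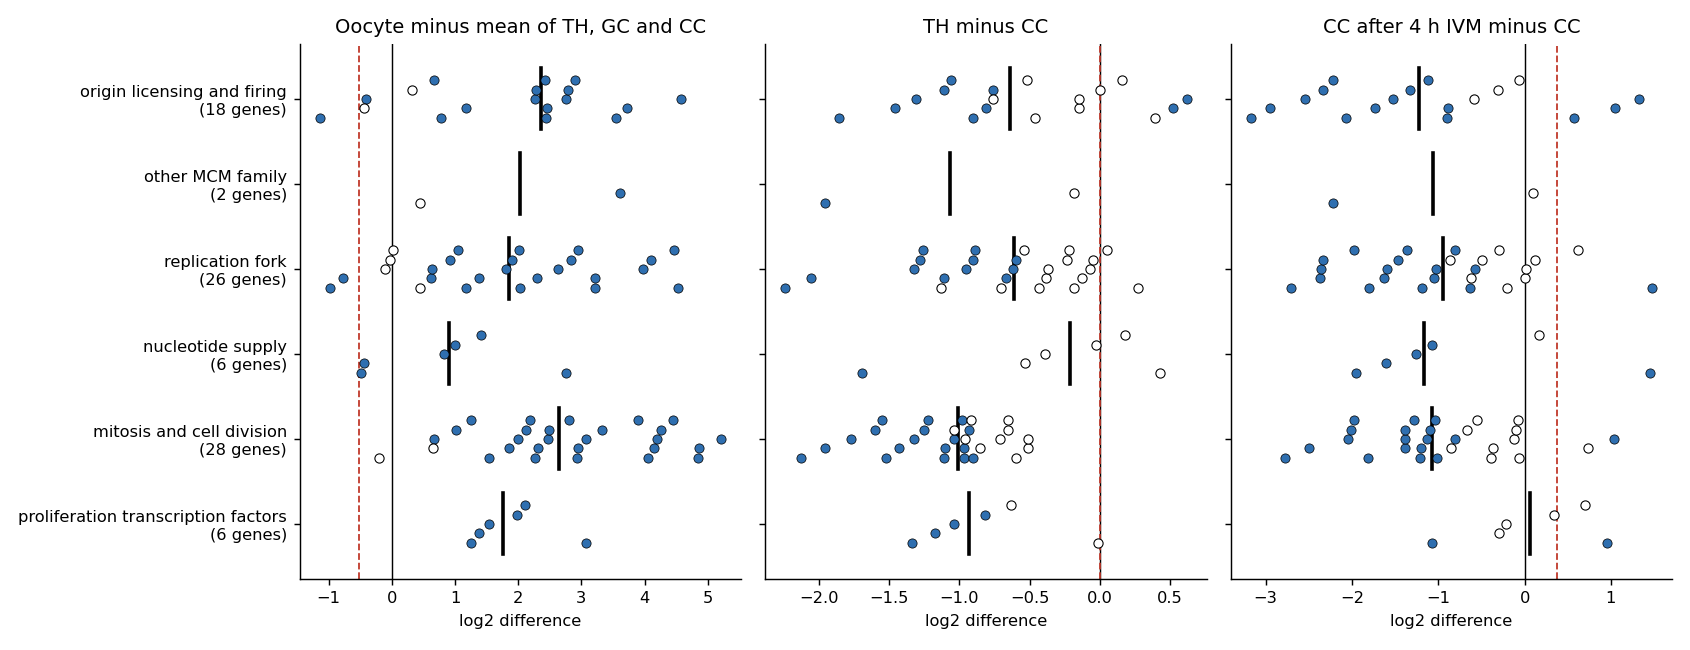
Log2 differences of the 86 other genes (x axis, a separate scale in each panel) by list, for OO minus the somatic mean, TH minus CC, and CC after 4 h of IVM minus CC; filled points passed the limma test at an adjusted p of 0.05, the black bars are list medians and the dashed lines the medians of all genes. The list medians in OO lie between 0.91 and 2.65, and 5 of the 6 after IVM between -1.22 and -0.94.

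Over the 16 arrays of TH, GC, CC and OO, the genes with the profile most like the mean of MCM2 to MCM7, by Pearson's correlation among 14782 genes and as a description only, were LSM4 (0.977), CDT1 (0.967), CDC20 (0.966), ENSBTAT00000045041 (0.965) and AURKB (0.964). Those most like the mean of MKI67 and TOP2A were NOLC1 (0.910), CDC23 (0.904), ETF1 (0.900), BMS1 (0.896) and MGME1 (0.882). The arrays of a cell type share its level, so that the 16 points are not independent, and the lists hold 0 genes in common.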

How the data were processed

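The 20 arrays were customized 1-colour Agilent 60K bovine arrays, hybridised with Cy3-labelled cRNA from 200 ng of total RNA. The deposited files hold spot intensity from Agilent Feature Extraction 10.7.3.1, with a processed signal corrected for background by the authors' software and not normalized between arrays. The authors also deposited log2 values, which matched log2 of the median signal minus the array median within 5e-09.

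Control and outlier-marked spots (up to 23 for an array) were left out, log2 processed signal was scaled to the 75th percentile of each array, and the median over the spots of a gene was taken, as in the study's methods. Of the 61325 probes, 9779 carried no gene name, and 734 of these were named by accession through RefSeq. Some genes of the lists stand under older names on the array (ORC5L, CDC7L1, CDC45L and HCAP-G). Samples were grouped by their titles. Limma 3.58.1 (lmFit, eBayes; R 4.3.3) was fitted to the 16 arrays of TH, GC, CC and OO, with the F-test, OO against the mean of the others and all pairs, and separately to CC and IVM. P-values are two-sided and were adjusted by Benjamini-Hochberg over 22550 genes, with 0.05 as the threshold. Intervals are 95% intervals of the moderated fit. Other software was the R package data.table, version 1.17.8, and Python 3.11.15 (pandas 2.3.3, numpy 2.4.6, scipy 1.17.1, matplotlib 3.10.9).

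All 10 genes are named. Apart from some items that are not reported here, from each list of related genes, the text names up to 2 rises and 2 falls with the largest differences among called genes without overlap between groups, for OO against the somatic mean, TH against GC, GC against CC, and IVM against CC, and the 5 genes most alike to each mean profile among those well above background on at least 8 arrays. Replicate numbers were taken to pair arrays where deviations from the group means of equal numbers all correlated above 0.1, which held only for TH and GC (0.117 to 0.340, 4 pairs; from the data, not the labels). The 10 genes and the lists were chosen with earlier results of these data known.

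The fit was tested on simulated data over 22550 genes with 200 changed. At a log2 change of 2 it recovered 90% for OO against the somatic mean (6 unchanged genes called) and 79% for IVM against CC (20 called). At a change of 1 it recovered 39.5 and 6%. In the data many more genes than 200 were called, 16070 and 10329 in these 2 comparisons. The Benjamini-Hochberg adjustment depends on that number, so the recovered shares do not carry over to the data. The number of arrays limits the precision. Alternatives were other scalings, background corrections, probe summaries, filters, blocks, weights, and leaving out arrays. Probe coordinates are those of UMD 3.1, and RefSeq was used for names, chromosomes and neighbours only.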

Additional observations from a re-analysis of the deposited data

Results flagged for a closer look

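Dixon's 95% criterion for 4 values was applied to each of the 10 genes in each of the 5 groups. Of these 50 sets, 7 held an array far from the other three, where chance gives about 1 in 20, or 2.5. 3 of the 7 were GC replicate 4, at -2.29 for MCM2 (others -4.75 to -4.35), 2.71 for MCM3 (1.00 to 1.25) and -2.24 for MCM6 (-3.23 to -3.18). OO replicate 1 was at -0.84 for MCM2 (others -3.43 to -3.29) and at -3.80 for MKI67 (-2.26 to -2.24), in opposite directions. After IVM, replicate 2 was at -4.10 for MCM6 (others -3.16 to -2.98), and replicate 1 at -5.55 for CDC6 (-4.56 to -4.42).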

How the results depend on the processing

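Of the 10 genes, CDC6, MCM3, MCM4, MCM5, MCM6 and PCNA were higher in OO than in the somatic mean, and called, under all 32 alternatives, and the number called against the somatic mean, TH, GC or CC and in the F-test stayed within 1.5 times under each. The somatic comparisons depended more on the setting. TH against GC gave 1 gene on the deposited log2 table and 0 within either slide, and 1 to 2 when 1 array was left out (1 without TH replicate 3). TH against CC gave 7 with arrayWeights, 1 within slide 1, 0 within slide 2, 1 to 5 with 1 array left out and 6 without GC replicate 4 and OO replicate 1. GC against CC gave 1 with arrayWeights (TOP2A) and 0 to 2 with arrays left out, with 2 without GC replicate 4. IVM against CC gave 5 after normexp correction, without MCM4, CDC6 and MKI67, and 7 to 9 under the others. Over all genes, normexp correction raised the calls for IVM against CC from 10329 to 17668. Those lower after IVM went from 3505 to 2954. On the deposited log2 table, 2863 of all genes were lower in TH than in GC, compared with 3267 in the main fit. For arrayWeights, single slides and left-out arrays, the calls over all genes are not given here. Whether these swings are particular to the 10 genes was not tested. The differences that reversed were MCM4 after IVM (0.25, normexp) and MCM7 in OO against GC and CC (0.52 and 0.47, deposited table). The cause was not tested. A slide alone holds 2 arrays for each group, and signal near background limits what can be said of MCM2 and MCM4 after IVM. With the percentile taken over probes detected on all arrays, the share of calls that were higher rose in the somatic pairs. It went from 45.2 to 60.7% for TH against CC and from 45.0 to 55.9% for TH against GC. For GC against CC it went from 46.6 to 58.3%. The share fell from 46.2 to 37.2% for OO against the somatic mean and from 66.1 to 60.4% for IVM against CC.

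For TH and GC, whose equal numbers went together, the replicate block left MCM5 and MCM7 called, and it changed no call of a single gene between groups, although 8 genes in place of 7 passed the F-test over the cell types. For the other pairs of groups the replicate numbers did not meet the criterion for pairs. In GC and CC 3 of 4 correlations were over 0.1, in TH and CC 2, in those with OO 0, and between CC and IVM they ran from -0.142 to -0.005. With the replicate block, 6 genes were higher in OO than in the somatic mean and 8 passed the F-test. In TH, 2 and 3 were lower than in GC and CC. In OO, 7, 6 and 5 were higher than in TH, GC and CC, and 8 genes were lower after IVM. The calls over all genes with the replicate block are not given here, so these counts have no background to be set against.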
